A study of Homo sapiens with 4 samples.

Results

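A set of 10 genes of the circadian clock was followed in HT29 cells exposed to fluorouracil and in untreated HT29 cells: CLOCK, ARNTL, PER1, PER2, PER3, CRY1, CRY2, NR1D1, NR1D2 and DBP. They were taken by exact symbol from a table of 33117 rows, and all 10 had a row. HT29 is an established human colorectal adenocarcinoma line, and fluorouracil is a chemotherapy drug that resembles the base uracil. The treated group was given 100 µM fluorouracil (5FU) for 2 h and the control group was left without treatment; each group had 2 RNA libraries, and both were grown in DMEM with fetal calf serum. No vehicle is named in the labels. Nothing there tells whether replicates were separate cultures, so the p-values below rest on a library-to-library spread that can be purely technical.

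The circadian clock is a transcriptional feedback loop present in most cells. The proteins CLOCK and ARNTL, also called BMAL1, bind together to E-box sequences and activate the PER and CRY genes, whose products return to the nucleus and inhibit them. In a second loop, the nuclear receptors encoded by NR1D1 and NR1D2 repress ARNTL through ROR elements, and DBP carries the rhythm to genes with D-boxes. PER1 is also known as an acutely inducible gene that responds to serum, glucocorticoids and cAMP signalling, and the intestinal epithelium has a clock of its own.

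The starts of the 10 genes hold many of these elements. Promoter windows from 250 bases before to 50 bases after each annotated start were taken from RefSeq (GRCh38.p14), where all 10 genes matched, ARNTL under its newer symbol BMAL1, with 15 windows in all. The E-box CACGTG or its variant CACGTT, on either strand, stood in a window of 7 of the 10 genes: PER1, PER2, CRY1, CRY2, NR1D1, NR1D2 and CLOCK. Among all 27305 genes with promoter windows, 14.5% held either motif, and the motifs do not overlap each other in a given position. A match describes the letters only and does not show that a factor binds there. The windows of PER1 (chr17:8152355-8152654, minus strand) and CRY2 (chr11:45847225-45847524, plus strand; the second of its 2 starts) are shown because these are the 2 genes whose values were higher in both treated libraries. Sequences run 5′ to 3′ in the direction of the gene. Capitals mark CACGTG in PER1; in CRY2 they mark AACGTG, which is CACGTT on the other strand, and the ROR element core TAGGTCA.
PER1: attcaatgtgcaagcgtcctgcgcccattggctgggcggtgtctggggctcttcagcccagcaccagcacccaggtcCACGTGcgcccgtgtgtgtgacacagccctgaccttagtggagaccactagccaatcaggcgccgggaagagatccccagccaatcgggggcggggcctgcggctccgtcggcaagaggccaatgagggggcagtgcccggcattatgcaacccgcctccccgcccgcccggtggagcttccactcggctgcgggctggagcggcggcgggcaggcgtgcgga
CRY2: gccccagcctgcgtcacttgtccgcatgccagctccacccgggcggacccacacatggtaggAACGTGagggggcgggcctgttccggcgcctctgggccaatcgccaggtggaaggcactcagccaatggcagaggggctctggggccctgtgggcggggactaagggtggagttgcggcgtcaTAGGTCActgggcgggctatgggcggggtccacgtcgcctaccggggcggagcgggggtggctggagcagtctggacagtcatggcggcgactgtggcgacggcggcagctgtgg

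The E-box of PER1 began 173 bases before the annotated start, and the variant in CRY2 began 188 bases before its start. Further matches, 9 of them, are shown as short stretches, to set the element of each gene beside that of its relatives; capitals mark the motif.
NR1D2, first E-box: cgggcggggaCACGTGaggccgctcg
NR1D2, second E-box: gccgcagggaCACGTGggggcggggg
PER2, CACGTT: cgcgcgcggtCACGTTttccactatg
CLOCK, CACGTT: accactcgggCACGTTtggagcagcg
CRY1, CACGTT on the other strand: acacttcagaAACGTGaggtgccggt
NR1D1, CACGTT on the other strand: gcaagagctcAACGTGccggctgttg
ARNTL, ROR core TAGGTCA: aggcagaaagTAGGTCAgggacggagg
PER3, D-box TTATGTAA: agcccgcgcgTTATGTAAcgcgccccgg
PER2, D-box TTACGTAA: ccgctgcggcTTACGTAAccgccgccgg
The core TAGGTCA was found in 2 of the 10 genes, ARNTL and CRY2, and in 2.29% of all genes, and TGGGTCA in CLOCK and NR1D2 and in 4.80% of all genes. The D-box TTATGTAA was found in PER3 and NR1D2 and in 1.13% of all genes, and TTACGTAA in PER2 and in 0.146%. The cAMP response element TGACGTCA stood in none of the windows of the 10 genes and in 2.25% of all genes. DBP held none of the motifs searched in this window.

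Each library gave 1 value per gene in FPKM, a fragment number normalized to transcript length and library depth, so levels can be compared between genes. The number of fragments is unknown, and no counting interval was computed. Fluorouracil replicate 2 stood apart from the other 3 libraries. Its column summed to 764861 FPKM, against 427007 to 440558 FPKM in theirs, and its values were deposited with a median of 6 digits, against 16; whether it was scaled or exported in another way is not given in the sources used here. Its log2 values differed from theirs with an SD of 1.78 to 1.82 over 12462 tested genes, against 0.411 between the untreated libraries and 0.552 and 0.578 between fluorouracil replicate 1 and the untreated ones. In this library the change of a gene moved with the GC content of its longest transcript, a coding one where there was any (Spearman 0.656 over 11704 genes, and 0.033 in fluorouracil replicate 1). Values are therefore given per library. For part of the genes the change is also given after the trend with GC content and transcript length had been removed by a loess fit. All other changes are as deposited and can hold this trend. Epithelial markers were abundant (9 genes summing to 7460 and 16500 FPKM in the treated and 7360 and 7750 FPKM in the untreated libraries), although CDX2 was below 1 FPKM in all. All 5 fibroblast and 3 endothelial markers were below 1 FPKM in every library, as were 3 of 4 leukocyte markers, the exception being CD14.

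PER1 and CRY2 had treated values above the untreated range in both libraries, CLOCK and PER3 had treated values below it, and the other 6 genes overlapped. In bulk RNA, fewer expressing cells and less RNA per cell cannot be told apart. None of the 10 passed the test over the whole table (limma with Benjamini-Hochberg adjustment over 12462 genes), which called 0 genes (0%). That is 2 of 10 members higher and 2 of 10 lower, where 24.4% of all tested genes were higher and 19.3% lower in both treated libraries, so the counts were near the background. PER1 and CRY2 also had an unadjusted limma p below 0.05, as had 2.20% of all tested genes in that direction; 1.01% had one in the other direction, and 400 genes (3.21%) in either. The smallest adjusted limma p over all tested genes was 0.671. PER1, CRY2, CLOCK and DBP all had this value despite different unadjusted p, so it does not rank them. The smallest two-sided p that exact permutation allows for 1 gene in this design is 0.333. The median log2 change of the 10 genes was -0.02, beside 0.10 for all tested genes.

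**Figure D1:**
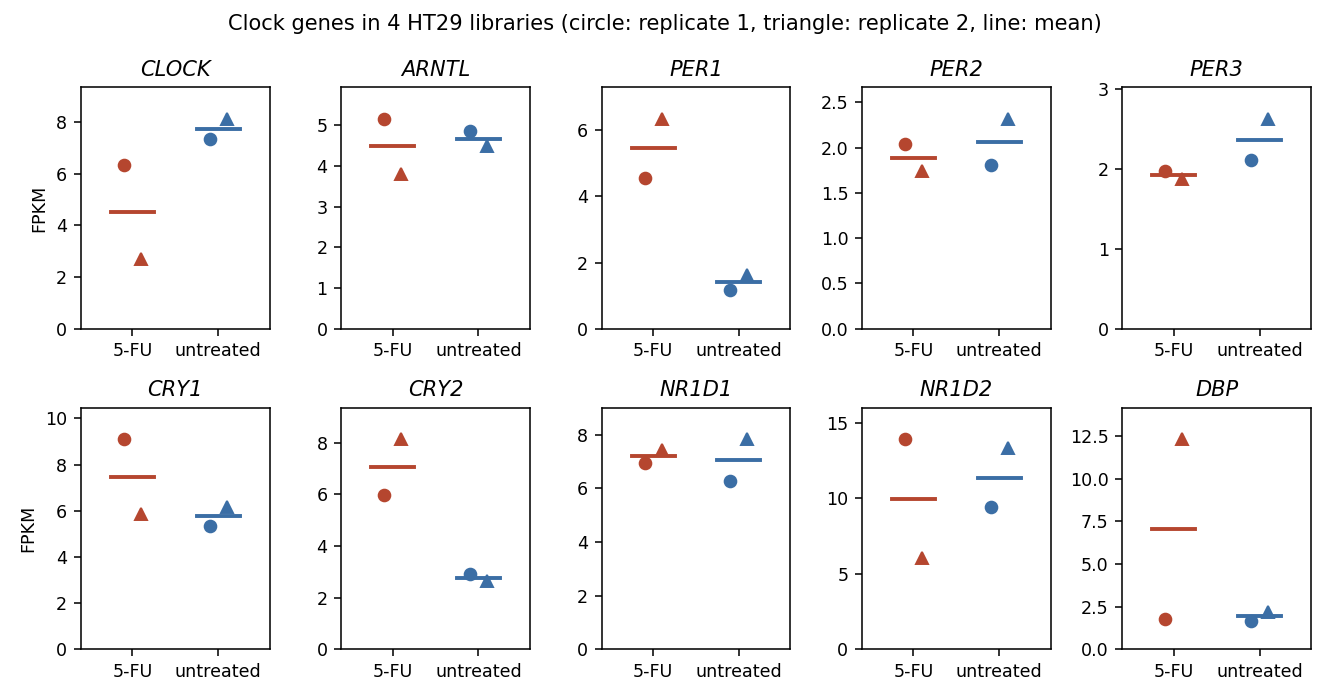
FPKM (vertical axis, from 0) of each clock gene in the 2 fluorouracil (5-FU, left) and 2 untreated libraries (right); circles are replicate 1, triangles replicate 2 and lines the group means. PER1 and CRY2 have both treated points above both untreated ones, and DBP has 1 treated point at 12.3 FPKM far above the other 3.

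Of the activators, CLOCK was lower in both treated libraries and ARNTL overlapped. CLOCK, which encodes the histone acetyltransferase partner of the activating pair, had 6.34 and 2.68 FPKM in fluorouracil replicates 1 and 2, against 7.36 and 8.13 FPKM in untreated replicates 1 and 2. Both treated values lay below both untreated ones, and the lower one came from fluorouracil replicate 2. The log2 change was -0.89 (SE 0.50, limma unadjusted p = 0.145, adjusted p = 0.671), made up of -0.28 in fluorouracil replicate 1 and -1.49 in replicate 2. CLOCK has the lowest transcript GC content of the 10, 37.2%. With the trend removed its change was -0.26 in replicate 1 and -0.36 in replicate 2, and the groups still did not overlap.

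ARNTL, the bHLH-PAS partner of CLOCK, had 5.16 and 3.80 FPKM in the treated libraries and 4.85 and 4.48 FPKM in the untreated ones. The untreated values lay between the treated ones. Its log2 change was -0.07 (SE 0.33), with 0.14 in fluorouracil replicate 1 and -0.29 in replicate 2. Within a library, the ratio of ARNTL to CLOCK was 0.815 and 1.42 in the treated and 0.659 and 0.552 in the untreated libraries. This ratio was higher in both treated libraries, and its groups overlapped once the GC and length trend was removed.

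Among the PER genes, which encode the PAS-domain repressors of the loop, PER1 was higher in both treated libraries. PER1 had 4.57 and 6.35 FPKM in fluorouracil replicates 1 and 2, against 1.18 and 1.63 FPKM in untreated replicates 1 and 2. The treated values were 3.26 and 4.52 times the untreated mean, and the groups were far from overlapping. The means were 5.46 ± 1.26 FPKM treated and 1.40 ± 0.317 FPKM untreated (SD, n = 2 each). The log2 change of 1.88 (SE 0.40) had a limma unadjusted p of 0.00828 and an adjusted p of 0.671. It was 1.65 in fluorouracil replicate 1 and 2.12 in replicate 2, while the untreated libraries differed by 0.43.

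PER1 is rich in GC (62.7%), and the trend of fluorouracil replicate 2 at its GC content and length was 1.08 on the log2 scale. With the trend removed PER1 was still higher in both treated libraries, by 1.64 in replicate 1 and 1.04 in replicate 2. In fluorouracil replicate 1 the trend at PER1 was 0.01, so the value of that library hardly moved. PER1 spans 8140472 to 8156506 on chromosome 17, minus strand (GENCODE 29, GRCh38).

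PER2 and PER3 did not share this pattern. PER2, which stabilizes the repressive complex, had 2.04 and 1.74 FPKM in the treated libraries and 1.81 and 2.32 FPKM in the untreated ones. These values interleaved, and the log2 change was -0.12 (SE 0.42). With the trend removed PER2 was at -0.03 in fluorouracil replicate 1 and -0.50 in replicate 2, and the groups overlapped. PER3, the third paralogue, had 1.98 and 1.88 FPKM treated against 2.11 and 2.63 FPKM untreated. Both treated values of PER3 were lower, by 0.24 and 0.32 on the log2 scale, and the untreated libraries differed by 0.30. The PER3 groups overlapped after removal of the trend.

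The ratio of PER1 to PER2 within a library was 2.24 and 3.64 in the treated and 0.650 and 0.701 in the untreated libraries. PER1 was thus the least abundant of the PER transcripts in both untreated libraries and the most abundant in both treated ones. The ratio of PER1 to PER3 was 2.31 and 3.38 treated and 0.558 and 0.619 untreated. A scaling of the whole library cannot move such a ratio, whereas a trend with GC content can. With the trend removed, the ratios still did not overlap, and the log2 ratio of PER1 to PER2 was higher by 1.61 in treated cells and that of PER1 to PER3 by 1.54, against 2.08 and 2.25 as deposited.

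**Figure D2:**
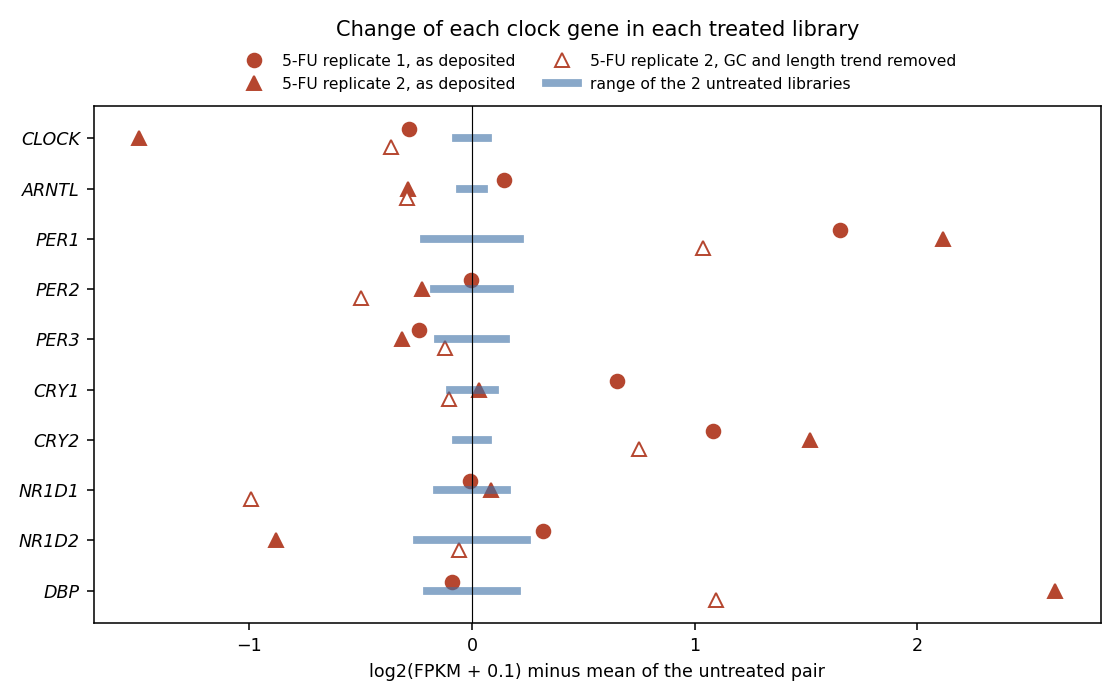
Log2(FPKM + 0.1) minus the mean of the untreated pair (horizontal axis) for each clock gene in fluorouracil (5-FU) replicate 1 (circles) and replicate 2 (filled triangles), and in replicate 2 with the GC and length trend removed (open triangles); bars span the 2 untreated libraries as deposited. PER1 and CRY2 lie right of the bar in all 3 readings, and the open triangle of DBP is at 1.10 where the filled one is at 2.62.

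Among the cryptochromes, flavoprotein-like repressors that act with PER on the CLOCK and ARNTL complex, CRY2 was higher in both treated libraries and CRY1 overlapped. CRY2 had 5.98 and 8.13 FPKM in fluorouracil replicates 1 and 2, against 2.92 and 2.63 FPKM in the untreated libraries. Both treated values were above both untreated ones, at 2.15 and 2.93 times the untreated mean. The means were 7.06 ± 1.52 FPKM treated and 2.78 ± 0.206 FPKM untreated (SD, n = 2 each), and the log2 change was 1.30 (SE 0.33, limma unadjusted p = 0.0151, adjusted p = 0.671). It was 1.08 in replicate 1 and 1.52 in replicate 2, and 1.05 and 0.75 with the trend removed. The CRY2 gene lies on chromosome 11 from 45847118 to 45883248, plus strand.

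CRY1, its paralogue and in the mouse the stronger repressor, had 9.09 and 5.87 FPKM in the treated libraries and 5.36 and 6.18 FPKM in the untreated ones. Only fluorouracil replicate 1 lay above the untreated values, by 0.65 on the log2 scale, and replicate 2 lay between them. The CRY1 change over both was 0.34 (SE 0.35). The ratio of CRY1 to CRY2 was 1.52 and 0.722 in treated libraries and 1.83 and 2.35 in untreated ones, lower in both treated libraries as deposited and with the trend removed.

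The nuclear receptor genes of the second loop overlapped between the groups. NR1D1, which encodes the haem-binding repressor REV-ERBα, had 6.95 and 7.42 FPKM in the treated and 6.26 and 7.82 FPKM in the untreated libraries. Both treated values of NR1D1 lay between the untreated ones, and the log2 change was 0.04 (SE 0.29) as deposited and -0.52 with the trend removed. In the trend-removed values, fluorouracil replicate 2 was at -0.99 and replicate 1 at -0.05, so the sign of the NR1D1 change turned with the removal of the trend. The 3′ end of NR1D1 overlaps THRA on the other strand, and strand use in counting is not given in the sources used here; THRA had 6.69 and 11.3 FPKM treated and 9.30 and 9.81 FPKM untreated.

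NR1D2, which encodes the related receptor REV-ERBβ, was the most abundant of the 10 genes in fluorouracil replicate 1 and in both untreated libraries, and in place 5 in fluorouracil replicate 2. It had 13.9 and 6.03 FPKM in the treated libraries and 9.41 and 13.3 FPKM in the untreated ones. The treated libraries lay on either side of the untreated pair, with log2 changes of 0.32 in replicate 1 and -0.88 in replicate 2. NR1D2 has a transcript GC content of 38.5%, and with the trend removed replicate 2 was at -0.06.

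DBP, a PAR bZIP activator and a direct output of the loop, was high in a single library. It had 1.79 and 12.3 FPKM in fluorouracil replicates 1 and 2, against 1.65 and 2.21 FPKM in the untreated libraries. Fluorouracil replicate 1 lay between the untreated values, while replicate 2 was at 6.35 times their mean. DBP has the highest GC content of the 10, 65.5%; the trend of replicate 2 at its GC content and length was 1.52, and 1.10 was left after its removal. SPHK2, which overlaps DBP on the other strand, had 11.0 and 44.0 FPKM treated and 14.7 and 16.9 FPKM untreated. CLOCK and NR1D2 also overlap coding genes on the other strand: TMEM165 in the case of CLOCK and, in that of NR1D2, NKIRAS1, with 3.11 and 1.41 FPKM treated and 1.99 and 2.26 FPKM untreated. PER3 overlaps UTS2 on the other strand, which was at most 0.0936 FPKM in any library. PER1 overlaps AC129492.3, annotated as protein coding on the same strand, for which no value is given here. The part of these overlaps in the values was not tested.

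Across the 10 genes the changes in fluorouracil replicate 2 followed transcript GC content closely (Spearman 0.964, n = 10 genes of 1 library, a description). The coefficient was 0.285 in fluorouracil replicate 1. There, PER1, CRY2 and CRY1 were higher by 1.65, 1.08 and 0.65, NR1D2 was higher by 0.32, and the other 6 genes lay between -0.28 and 0.14. Without fluorouracil replicate 2, PER1 and CRY2 had an adjusted limma p of 0.210 and 0.222, in a fit that assumes the lone treated library to vary like the untreated pair and that called 18 genes (0.144%). Without fluorouracil replicate 1, 5 of the 10 members passed (PER1, CRY2, DBP, CLOCK and NR1D2), in a fit that called 66.9% of all tested genes. With the trend removed, 2 members were higher in both treated libraries (PER1 and CRY2; 19.4% of all genes) and 1 was lower (CLOCK; 27.7% of all genes).

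**Figure D3:**
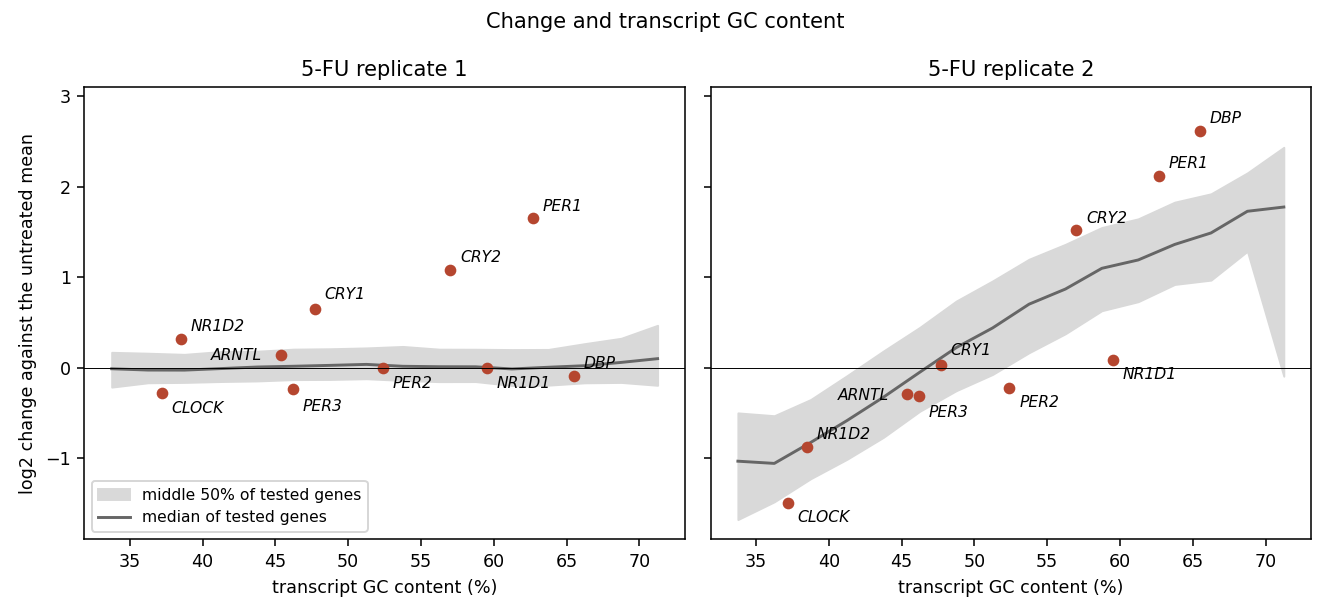
Log2 change against the untreated mean (vertical axis) and transcript GC content (horizontal axis, %) in fluorouracil (5-FU) replicate 1 (left) and replicate 2 (right); red points are the clock genes, the line and band the median and middle 50% of tested genes in bins of GC content. The band is flat in replicate 1, where PER1, CRY2, CRY1 and NR1D2 lie above it and CLOCK and PER3 below it; it climbs in replicate 2, where PER1, CRY2 and DBP lie above it and NR1D1, PER2 and, narrowly, CLOCK below it.

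In untreated cells the order of levels by mean FPKM was NR1D2 at 11.3, CLOCK at 7.75, NR1D1 at 7.04, CRY1 at 5.77, ARNTL at 4.67, CRY2 at 2.78, PER3 at 2.37, PER2 at 2.07, DBP at 1.93 and PER1 at 1.40. Each untreated library on its own had this same order. When the values of the 2 libraries were pooled, CLOCK and NR1D1 overlapped, as did PER3 with PER2 and PER2 with DBP. CRY2 and PER3 touched at 2.63 FPKM, and each other neighbouring pair was separate. By the mean of the treated libraries the order was NR1D2, CRY1, NR1D1, CRY2, DBP, PER1, CLOCK, ARNTL, PER3 and PER2, with DBP placed by replicate 2. Neither treated library had this order. In fluorouracil replicates 1 and 2, NR1D2 was in places 1 and 5, CRY1 in places 2 and 6 and CLOCK in places 4 and 8. CRY2 was in places 5 and 2 and DBP in places 10 and 1, while NR1D1 was in place 3 in both. PER1 was in place 7 in fluorouracil replicate 1 and in place 4 in replicate 2 (place 6 by the mean), and in place 10 in both untreated libraries.

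Of the repressors and bZIP factors that join the loop, 4 of 6 were tested, and 2 were higher and 1 lower in both treated libraries, as deposited and with the trend removed; none was called. Over all tested genes the shares were 24.4% higher and 19.3% lower as deposited, and 19.4% and 27.7% with the trend removed, and the counts of this list and of those that follow, over 2 to 10 genes each, are to be read beside them. BHLHE40 and BHLHE41 encode the paralogous E-box repressors DEC1 and DEC2, and they lay on opposite sides. BHLHE40 had 8.96 and 11.7 FPKM in treated cells against 4.04 and 4.06 FPKM in untreated cells, a log2 change of 1.32 (SE 0.30, limma unadjusted p = 0.0102, adjusted p = 0.671). BHLHE41 had 9.23 and 12.6 FPKM in treated cells against 26.9 and 33.4 FPKM in untreated cells, a log2 change of -1.47 (SE 0.32, limma unadjusted p = 0.00883, adjusted p = 0.671). Removal of the trend left changes of 1.06 for BHLHE40 and -1.62 for BHLHE41, and the groups of each gene did not overlap. NFIL3, the repressor that competes with DBP for D-boxes, had 6.46 and 5.68 FPKM treated and 4.48 and 3.44 FPKM untreated. TEF, a relative of DBP, had 2.77 and 3.99 FPKM treated and 2.63 and 3.77 FPKM untreated, and these overlapped. CIART, a repressor listed under its older symbol C1orf51, was below the limit of 1 FPKM at 0.872 and 0.793 treated and 0.425 and 0.0672 untreated, and HLF was at most 0.115 FPKM.

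Of 4 further activators, ARNTL2 and NPAS2 were tested, and ARNTL2 was lower in both treated libraries (both genes with the trend removed). ARNTL2, a paralogue of ARNTL, had 6.84 and 3.44 FPKM in treated cells and 9.70 and 8.96 FPKM in untreated cells (log2 change -0.93, SE 0.43, limma unadjusted p = 0.0928). NPAS2, a paralogue of CLOCK, had 2.75 and 3.88 FPKM treated and 4.36 and 3.13 FPKM untreated, which overlapped. RORA, which activates ARNTL, stayed below 0.5 FPKM in every library, and RORB was listed at 0 in all 4.

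Among 9 kinases, ubiquitin ligases and partners of PER and CRY, 7 were tested; 1 was higher and 1 lower in both treated libraries, and 5 overlapped, whereas 3 were higher, 2 lower and 2 overlapping with the trend removed. BTRC, a ligase subunit that targets PER, had 2.56 and 1.91 FPKM treated and 1.90 and 1.64 FPKM untreated. Its paralogue FBXW11 had 13.2 and 8.14 FPKM treated and 13.7 and 15.1 FPKM untreated. The PER kinase gene CSNK1D had 15.2 and 53.0 FPKM treated against 16.2 and 15.6 FPKM untreated, so that only fluorouracil replicate 2 departed. USP2, a deubiquitinase gene below the limit of 1 FPKM, had 0.0969 and 0.375 FPKM treated and 0.0656 and 0.0311 FPKM untreated.

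Of the 11 cAMP and CREB genes that feed into PER1, 10 were tested, with 3 higher, 2 lower and 5 overlapping, near the shares over all tested genes. With the trend removed 0 were higher, 3 lower and 7 overlapping. PRKACB, a catalytic subunit of protein kinase A, had 1.79 and 0.843 FPKM in treated cells and 2.88 and 2.72 FPKM in untreated cells. ATF1, a CREB relative, had 23.5 and 9.77 FPKM treated and 27.8 and 24.6 FPKM untreated. The 3 with higher values were CRTC1, CRTC3 and SIK3, with log2 changes of 0.61, 0.21 and 0.23, and all 3 overlapped with the trend removed. SIK1, a CREB target that has a near-identical copy in some annotations, was below 0.5 FPKM in every library.

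Of 8 clock output genes, 7 were tested, with 4 higher, 2 lower and 1 overlapping, and with 4 higher and 3 lower once the trend was removed. KLF9, the gene below the limit of 1 FPKM on average, had 1.17 and 0.858 FPKM treated and 0.372 and 0.484 FPKM untreated. CDKN1A, the cell cycle inhibitor p21, had 29.3 and 66.1 FPKM in treated cells against 14.1 and 10.9 FPKM in untreated cells (log2 change 1.82, SE 0.50, limma unadjusted p = 0.0191, adjusted p = 0.671). With the trend removed the CDKN1A change was 1.25. The nuclear receptor gene PPARD had 6.52 and 14.4 FPKM treated and 5.79 and 5.36 FPKM untreated, and KLF10 30.9 and 24.3 FPKM treated and 21.7 and 16.7 FPKM untreated. WEE1, a mitotic kinase gene with E-boxes in the mouse, was higher by 0.12 on the log2 scale, with groups that barely separated; KLF11 overlapped. NAMPT, which makes a precursor of NAD, had 47.0 and 19.6 FPKM treated and 61.1 and 53.9 FPKM untreated, and PPARA was the other gene with lower values, by 0.21. Many of these output genes also respond to other signals. Over the 5 lists, 0 genes were called, and the list medians were -0.55 for activators, 0.34 for repressors and bZIP factors, 0.03 for kinases and ligases, 0.17 for cAMP and CREB genes and 0.12 for output genes. With the trend removed they were -0.51, 0.08, 0.28, -0.03 and 0.31 in the same order, beside 0.10 for all tested genes as deposited and -0.03 with the trend removed.

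**Figure D4:**
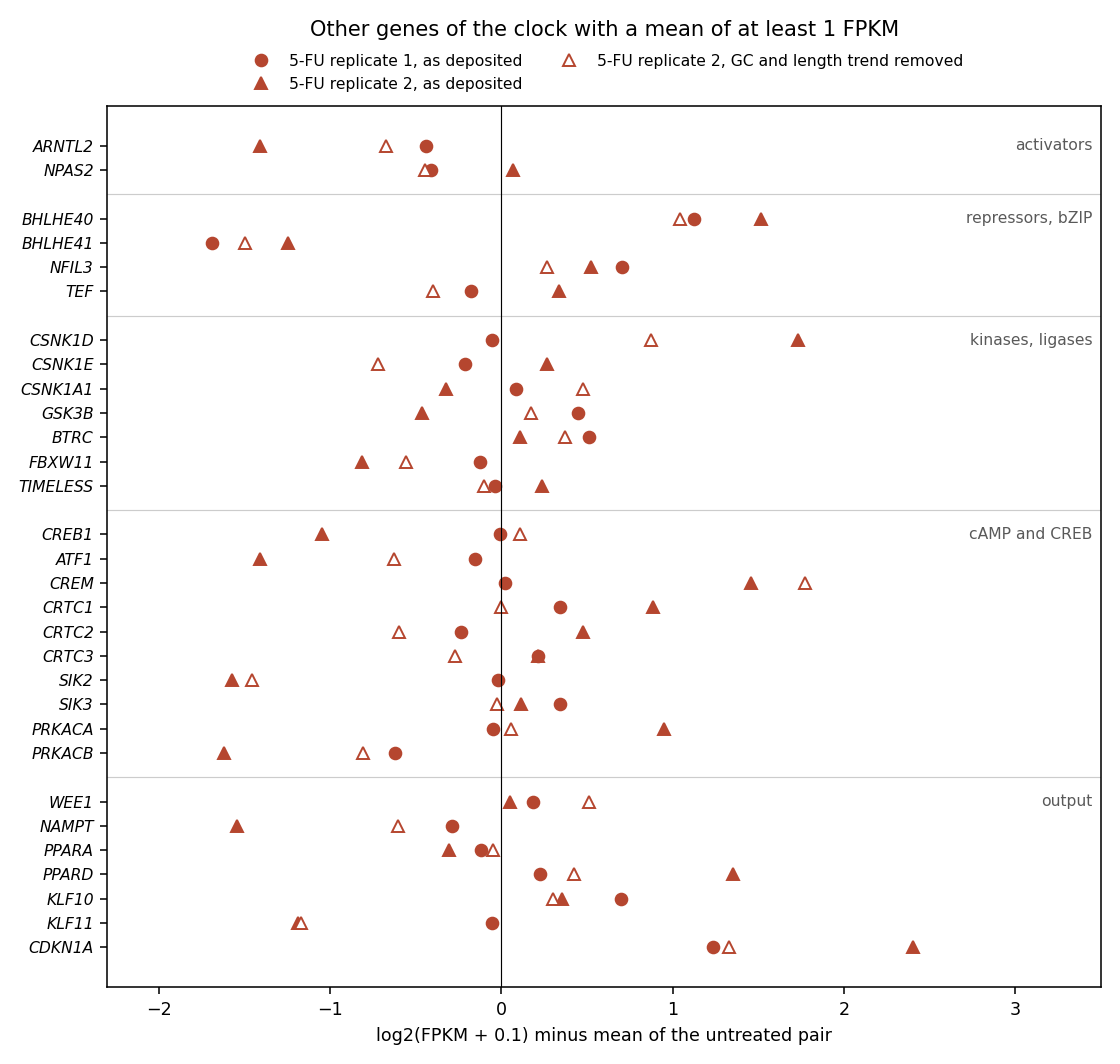
Log2(FPKM + 0.1) minus the mean of the untreated pair (horizontal axis) for the tested genes of 5 lists around the clock, in fluorouracil (5-FU) replicate 1 (circles), replicate 2 (filled triangles) and replicate 2 with the GC and length trend removed (open triangles). BHLHE40 and CDKN1A lie above 1 and BHLHE41 below -1 in all 3 readings. CSNK1D, SIK2, PRKACA and CREM, among others, depart in replicate 2 and not in replicate 1. With the trend removed these named genes are at 0.87, -1.46, 0.05 and 1.77 in replicate 2.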

How the data were processed

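The series holds RNA-seq of HT29 total RNA, with 2 treated and 2 untreated libraries. The authors deposited FPKM values per gene symbol; the submitters' processing notes name TopHat2 2.1.0, Cufflinks 2.2.1 and the builds hg38 and mm10 without roles. The sources used here do not state the annotation or whether libraries were scaled to each other. FPKM depends on the length model and on the library total. Rows with a number in place of a symbol (28) were left out. The fragment number is unknown; low values below 0.5 FPKM, whose most frequent ratio (within 0.1%) was shared by 18.5% and 19.0% of rows, make untreated replicate 2 and fluorouracil replicate 1 1.05 and 1.02 times as deep as untreated replicate 1, while fluorouracil replicate 2 gave no such ratio.

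Values were transformed to log2(FPKM + 0.1), which understates changes of low genes. The 12462 genes averaging at least 1 FPKM over the libraries, all 10 clock genes among them, were compared by limma 3.58.1 in R 4.3.3 (trended prior variance, two-sided, Benjamini-Hochberg over all tested genes, threshold 0.05). For the GC and length trend, the difference of each library from the gene's mean was fitted by loess (span 0.3). The fit used 11704 genes (93.9% of those tested), each with its longest coding transcript in GENCODE 29. Genes without a coding transcript were given their longest transcript of any type. Both steps were tested on simulated data in which no library had the spread of fluorouracil replicate 2, so these tests do not cover such a library. A gene is called higher or lower in both treated libraries when its groups do not overlap. The members and lists were chosen with earlier results of these data known. The text names all 10 members and, of each other list, genes with non-overlapping groups and those with small unadjusted p; the further list genes are named for comparison. Some genes first put on the lists are not reported here and were taken off them before the counts and medians. No genes were ranked by likeness to a member, since 4 libraries are too few.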

Additional observations from a re-analysis of the deposited data

How the results depend on the processing

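Of 13 alternatives, 3 changed the count of genes called: 339 with the replicate block, and 0 to 8337 when 1 library was left out (8337 without fluorouracil replicate 1, 18 without fluorouracil replicate 2). The count of clock members called was 0 except without fluorouracil replicate 1, where 5 passed (PER1, CRY2, DBP, CLOCK and NR1D2), and that of the other lists was 0 except in the same fit, with 18 of 30 tested (60.0%, beside 66.9% of all tested genes). A fit with 1 treated library takes its spread from the untreated pair. Members with separate groups ranged from 2 to 5 higher and from 2 to 5 lower when 1 library was left out, where 32.2% to 52.9% of all tested genes were higher and 25.5% to 41.4% lower. With a limit of 5 FPKM, where PER1 and CRY2 were not tested, the counts were 0 and 1; once the GC and length trend was taken out, 1 member (CLOCK) was lower. The median log2 change of the members was -0.12 at the 5 FPKM limit and ranged from -0.10 to 0.12 when 1 library was left out.

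PER1 and CRY2 kept their direction under every alternative in which they were tested. Their groups do not overlap, so only quantile normalization, median centring and removal of the trend could have turned that direction. PER1 was at 1.88 and CRY2 at 1.24 after quantile normalization, and at 1.34 and 0.90 with the trend removed. Reversed values were those of NR1D1 (-0.011 after quantile normalization, -0.010 after median centring, -0.52 with the trend removed, -0.12 to 0.20 when 1 library was left out), NR1D2 (0.12 with the trend removed, -0.88 to 0.32), ARNTL (-0.29 to 0.14), DBP (-0.089 to 2.62) and PER2 (-0.29 to 0.054). The replicate block called no clock member (adjusted p = 0.210 for PER1). The replicate numbers pair no libraries by the labels, and the differences between replicates 2 and 1 in the 2 groups correlated at -0.05 across genes. After median centring PER1 was at 1.84 and CRY2 at 1.25. With the limit of 5 FPKM, which leaves fewer genes in each list, the medians were -0.53 for cAMP and CREB genes, 0.61 for repressors and bZIP factors and 0.53 for output genes. Of the activators only ARNTL2 passed this limit, and -0.93 is its own change.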

Other observations

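The clock genes differed between the untreated libraries. Of the 10 genes, 8 had higher values in untreated replicate 2 than in untreated replicate 1, where 50.4% of all tested genes did. The median difference on the log2 scale was 0.31 for the clock genes and 0.00 for all tested genes. NR1D2 differed most, by 0.49, followed by PER1 at 0.43 and DBP at 0.40, and PER2, NR1D1 and PER3 lay between 0.30 and 0.34. ARNTL and CRY2 were the 2 genes with lower values in replicate 2, by 0.11 and 0.15. Over all tested genes the log2 differences of this untreated pair had an SD of 0.411, so a single difference of this size is not unusual. These values describe 2 libraries, and no test was made. In treated cells, as deposited, CRY2 was higher in both libraries by over 1 on the log2 scale, and PER1 by over 1.5, both larger than these differences. With the GC and length trend removed, fluorouracil replicate 2 was higher by 0.75 for CRY2 and by 1.04 for PER1.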
